A study of Mus musculus with 8 samples.

Results

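The genes described here encode serum proteins that the visceral endoderm of the early mouse embryo secretes. They are Afp, Trf, Ttr, Fga, Fgb, Fgg and Spink3, chosen by gene symbol, and make up 7 of the 21182 symbols in the deposited table. Their RNA levels were read in 8 whole mouse embryos, sequenced singly, of strain C57BL/6 at stage E6.75, when gastrulation begins. The 4 Control embryos carry the genotype label Control, and the 4 triple-knockout embryos carry the label Tet1/2/3 TKO. The labels do not name the alleles, litter or sex of either group, or any agent. The comparison asks how the expression of these genes differs between embryos labelled as lacking the TET enzymes and their controls. TET enzymes oxidise 5-methylcytosine, mostly at CpG sites, and so take part in the removal of DNA methylation.

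The visceral endoderm is the epithelium that wraps the epiblast and the extraembryonic ectoderm before and during gastrulation. It absorbs maternal nutrients and secretes carrier proteins that the fetal liver later makes, under regulators such as HNF4A, FOXA and GATA factors. Afp, Ttr and Trf are classical markers of this tissue. In a whole embryo, fewer visceral endoderm cells and less RNA per cell cannot be told apart.

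RefSeq promoter windows on build GRCm38.p6 were read for 4 of the 7 genes (Afp, Fga, Fgb and Fgg). Windows of Trf, Ttr and Spink3 were not examined. The 150 bases before each annotated start are printed 5′ to 3′ because these genes ranked the Control embryos nearly alike, and because C/EBP and FOXA factors are known regulators of hepatic genes. Capitals mark every match, on either strand, to letters searched for. These were CAAAG for the core of an HNF4 half-site, TTGCNNAA for C/EBP, AGATAA for GATA factors and TATAAA for the TATA box. For FOXA factors they were TGTTTAC or the variant TATTTAC or the variant TATTGAC.
Afp, chr5:90490564-90490713, plus strand: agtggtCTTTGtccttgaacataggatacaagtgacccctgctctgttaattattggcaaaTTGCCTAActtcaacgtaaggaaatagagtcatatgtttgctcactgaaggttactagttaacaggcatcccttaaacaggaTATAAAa
Fga, chr3:83026003-83026152, plus strand: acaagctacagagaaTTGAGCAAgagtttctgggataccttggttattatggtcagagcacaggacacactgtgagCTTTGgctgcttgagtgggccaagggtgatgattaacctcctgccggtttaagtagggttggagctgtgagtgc
Fgb, chr3:83049864-83050013, minus strand: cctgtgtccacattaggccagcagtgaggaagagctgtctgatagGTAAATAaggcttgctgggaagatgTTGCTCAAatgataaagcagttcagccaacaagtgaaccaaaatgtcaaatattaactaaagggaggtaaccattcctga
Fgg, chr3:83007574-83007723, plus strand: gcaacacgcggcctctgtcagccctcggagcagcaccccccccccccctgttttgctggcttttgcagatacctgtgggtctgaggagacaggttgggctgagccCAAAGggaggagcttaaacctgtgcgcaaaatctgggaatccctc

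The 3 fibrinogen genes are neighbours on chromosome 3, where their windows lie within 42640 bases. The C/EBP letters occurred in the windows of Afp, Fga and Fgb and not in that of Fgg, against 10.8% of all 32851 windows of the same 300 bases (250 before to 50 after a start). Fgb alone held FOXA letters (7.77% of all windows), and Afp alone the TATA box letters (13.6%). The HNF4 core letters stood in Fgg, Fga and Afp, but also in 53.9% of all windows, and the GATA letters in 0 of the 4 (11.2% of all windows). None of these matches overlap each other. The windows held 3 CpG dinucleotides each in Afp and Fga and 5 each in Fgb and Fgg, against a median of 7 over all windows. Windows with at most 3 CpGs made up 31.4% of all, and windows with at most 5 made up 43.6%. DNA methylation and factor binding were not analysed here, and the matches are letters, not sites. The letters GTTAAT for an HNF1 half-site were planned but not searched for, so they stand unmarked where the printed bases hold them, as in Afp. Letters for other factors were not searched for either.

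The values are RPKM, reads per kilobase of gene and per 1000000 mapped reads. The authors computed them, and levels of different genes can be set side by side. Sequencing depth, estimated from the smallest values, was 12.38 to 16.42 M reads in Control and 9.90 to 18.96 M reads in the TKO-labelled embryos (M for 1000000), lowest in TKO replicate 1. Tet1 was not lower in the embryos labelled TKO. Its mean was 5.24 ± 0.37 RPKM in Control against 11.4 ± 2.82 RPKM under the TKO label (SD, n = 4 each). All TKO-labelled values lay above the Control values (limma adjusted p = 0.103). Over 16 alternatives the limma adjusted p of Tet1 ranged from 0.0306, without TKO replicate 1, to 0.320. Tet3 lay at 1.85 and 1.38 RPKM (-0.26, limma adjusted p = 0.297). A value per gene does not show whether exons were deleted, so this does not check the deletion, and each direction below rests on the label.

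Markers of the tissue itself were present. Of 20 other visceral endoderm genes chosen as a reference (endocytic receptors, apolipoproteins, lipid transfer and surface proteins), 19 passed a filter of at least 1 RPKM in at least 4 of the 8 embryos. Of all 21182 symbols, 10451 passed it. Of 11 hepatocyte genes, 9 were under 1 RPKM in each embryo. The other 2 were Tdo2, a tryptophan-degrading enzyme gene at 0.172 to 48.2 RPKM, and Cyp2e1, a cytochrome P450 gene at 1.18 to 3.37 RPKM. Alb, the serum albumin gene next to Afp in the genome, was at 0.078 RPKM or less in all 8. The globin genes Hbb-bh1, Hba-x and Hbb-y were listed at 0 in all 8 embryos. Maternal decidua genes were present to very different degrees. The summed RPKM of 14 of them ranged from 6.52 to 591 in Control and from 25.4 to 469 in the TKO-labelled embryos. Their mean log2(RPKM + 1) was highest in Control replicate 3, at 4.34, and lowest in Control replicate 2, at 0.55. All 10 tested decidua genes had negative log2 differences, with a median of -0.75 and 0 past the threshold, and the part of maternal tissue in the results below was not tested.

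The serum protein genes spanned a wide range of levels. Spink3 came first, followed in order of the mean over 8 embryos by Ttr, Afp, Trf, Fgb, Fgg and Fga. Spink3 encodes a Kazal-type inhibitor of trypsin, Spink1 in current nomenclature, and was the 18th most abundant gene of the table by its mean of 2451 RPKM. In single embryos it was the 6th to the 49th most abundant gene and made up 0.293% to 0.709% of the summed RPKM. It exceeded Ttr in each of the 8 embryos, by 11.8 to 28.4 times. Ttr exceeded Afp in all 8, Afp exceeded Trf in all 8, Fgb exceeded Fgg in all 8 and Fgg exceeded Fga in all 8. Trf and Fgb could not be ordered, because Trf was higher in only 4 of 8 embryos. The ranges of Ttr and Afp also overlapped between embryos, as did those of Fgb and Fgg, although the order held within each embryo.

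Afp encodes alpha-fetoprotein, the main fetal carrier protein related to albumin. It measured 101, 85.6, 39.6 and 59.3 RPKM in Control replicates 1 to 4 and 55.2, 68.4, 54.2 and 49.4 RPKM in TKO-labelled replicates 1 to 4. The TKO-labelled values lay close together, inside the wider Control range. The means were 71.3 ± 27.2 and 56.8 ± 8.11 RPKM (SD, n = 4 each). The difference, TKO-labelled minus Control, was -0.25 on the log2(RPKM + 1) scale (95% confidence interval -0.80 to 0.30, limma adjusted p = 0.629). It came to -0.055 when Control replicate 1 was left out and to -0.50 when Control replicate 3 was.

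Ttr encodes transthyretin, which carries thyroid hormone and, through retinol-binding protein, retinol. Its values were 249.6, 150.2, 66.5 and 95.2 RPKM in Control and 136, 187, 226 and 120.4 RPKM in the TKO-labelled embryos. Control replicate 1 was the highest of the 8 and Control replicate 3 the lowest, and the TKO-labelled values lay between them. The means were 140.4 ± 80.7 and 167.6 ± 48.5 RPKM (log2 difference 0.38, interval -0.40 to 1.17, limma adjusted p = 0.599). It came to 0.72 when Control replicate 1 was left out and to 0.087 when Control replicate 3 was.

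Trf encodes transferrin, the iron carrier of the serum. It measured 18.5, 14.2, 6.80 and 12.1 RPKM in Control and 17.2, 10.3, 16.7 and 6.60 RPKM in the TKO-labelled embryos. Both groups covered nearly the same range, with means of 12.9 ± 4.86 and 12.7 ± 5.15 RPKM (log2 difference -0.03, interval -0.74 to 0.68, limma adjusted p = 0.970). The Trf difference ran from -0.28 without Control replicate 3 to 0.22 without TKO replicate 4.

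Fibrinogen, the clotting protein, is assembled from the products of Fga, Fgb and Fgg. Fgb, for the beta chain, measured 20.5, 12.2, 5.24 and 6.72 RPKM in Control and 10.7, 16.0, 18.8 and 11.5 RPKM in the TKO-labelled embryos. As for Ttr, Control replicates 1 and 3 were the extremes, and the groups overlapped (means 11.1 ± 6.89 and 14.3 ± 3.84 RPKM, log2 difference 0.46, interval -0.29 to 1.22, limma adjusted p = 0.503). The Fgb difference came to 0.79 when Control replicate 1 was left out and to 0.20 when Control replicate 3 was. Fgg, for the gamma chain, measured 6.55, 3.91, 2.00 and 3.42 RPKM in Control and 3.44, 8.04, 7.15 and 3.69 RPKM in the TKO-labelled embryos. TKO replicates 2 and 3 were the highest of the 8, while the other TKO-labelled values lay inside the Control range (means 3.97 ± 1.90 and 5.58 ± 2.36 RPKM, log2 difference 0.41, interval -0.26 to 1.08, limma adjusted p = 0.504). The corresponding values for Fgg were 0.64 and 0.19.

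Fga, for the alpha chain, stood far below its partner chains and was the gene that did not pass the filter. It measured 0.576, 0.438, 0.262 and 0.207 RPKM in Control and 0.390, 0.545, 0.920 and 0.152 RPKM in the TKO-labelled embryos. At the estimated depths and a GENCODE exon length of 3010 bases these values correspond to about 5 to 53 reads. The TKO-labelled group held both the highest and the lowest value (means 0.371 ± 0.169 and 0.502 ± 0.322 RPKM, exact two-sided permutation p = 0.600). Within embryos Fga was 1.32% to 5.0% of Fgb, while Fgg was 32% to 51.0% of Fgb. The shares of Fgg in Fgb were nearly equal in the groups, at 38.3% ± 8.93 in Control and 38.1% ± 8.54 in the TKO-labelled embryos (SD, n = 4 each). For the log2 ratio of Fgb to Fgg the difference was 0.05 (exact permutation p = 0.857), for Fga to Fgb -0.35 (p = 0.371) and for Fga to Fgg -0.30 (p = 0.343), and none of these passed the threshold. These ratios use a pseudocount of 1 RPKM, which is above all values of Fga. The gene models behind the deposited values are not given, and their part in the gap between Fga and its partners was not tested.

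Spink3 measured 3671, 2992, 1891 and 2426 RPKM in Control and 1814, 2218, 3106 and 1492 RPKM in the TKO-labelled embryos. The lowest 2 values of the 8 were TKO replicates 4 and 1, and TKO replicate 3 lay second only to Control replicate 1. The means were 2745 ± 764 and 2157 ± 699 RPKM (log2 difference -0.36, interval -0.91 to 0.19, limma adjusted p = 0.477). Leaving out 1 embryo at a time moved the Spink3 difference between -0.20, without TKO replicate 4 or Control replicate 1, and -0.55, without TKO replicate 3.

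**Figure D1:**
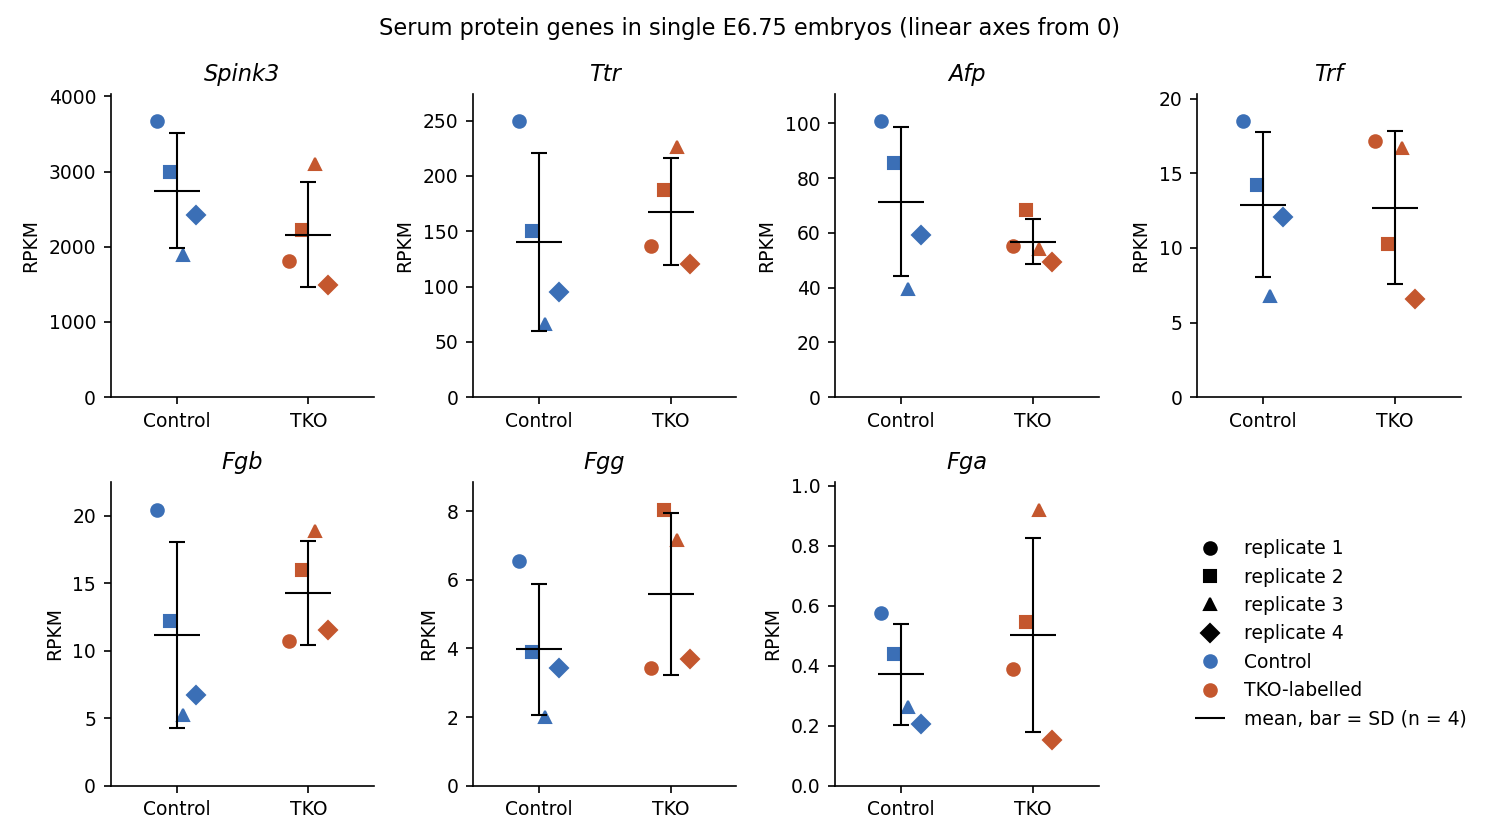
RPKM (linear axes from 0) of the 7 serum protein genes in 4 Control and 4 TKO-labelled embryos, 1 panel a gene; points are embryos, shaped by replicate number, and black bars give the mean and SD. The groups overlap in every panel, and Control replicate 1 (circle) is the highest Control embryo for all 7 genes.

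In all, 0 of the 6 tested genes passed limma's threshold of an adjusted p under 0.05, and 0 had an unadjusted p under 0.05. Over all 10451 tested genes 0.00957% passed the adjusted threshold (1 gene) and 17.5% had an unadjusted p under 0.05. The groups overlapped for all 6, whereas they did not overlap for 9.41% of all tested genes, 7.55% higher and 1.86% lower in the TKO-labelled embryos. The signs were split, with 3 positive differences (Fgb, Fgg and Ttr) and 3 negative ones (Spink3, Afp and Trf). The median log2 difference of the 6 was 0.18, against 0.09 over all tested genes, of which 66.5% had a positive difference (51.1% after median-ratio scaling). Without Control replicate 3 the median of the 6 was -0.099, and without Control replicate 1 it was 0.40, so leaving out Control replicate 3 turned its sign. A filter at 5 RPKM, which drops Fgg, gave -0.032, and a visceral endoderm covariate -0.24. Each of the 6 intervals contains 0, and those of Ttr, Fgb and Fgg also contain a log2 increase of over 1.

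**Figure D2:**
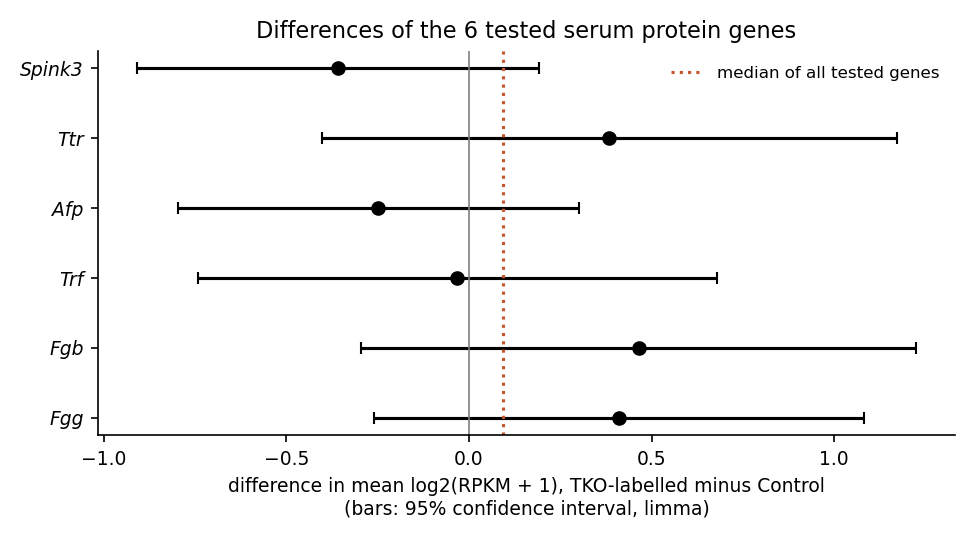
Difference in mean log2(RPKM + 1), TKO-labelled minus Control, for the 6 tested serum protein genes, with 95% confidence intervals from limma. The dotted line is the median of all tested genes (0.09), and all 6 intervals contain 0.

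The spread between embryos of 1 group was large for these genes. Within Control, the SD of the log2(RPKM + 1) level was 0.41 for Spink3, 0.55 for Fgg, 0.56 for Trf, 0.59 for Afp, 0.80 for Fgb and 0.82 for Ttr. The median of these 6 SDs was 0.57, against 0.18 over all tested genes, and between 93.2% and 98.6% of all tested genes had a smaller SD in Control than each of them. Within the TKO-labelled embryos the median SD was 0.43, against 0.20 over all tested genes, and Afp stood apart with an SD of 0.19, below the median. The reference visceral endoderm genes had median SDs of 0.52 in Control and 0.29 in the TKO-labelled embryos. Leaving out Control replicate 3 lowered the median SD of the serum protein genes in Control to 0.40, and leaving out any other Control embryo gave 0.53 to 0.70.

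The Control embryos ranked alike across the genes. Control replicate 1 was the highest Control embryo for 7 of 7 genes, and Control replicate 2 came next for all 7. In 6 of 7 genes the order was replicate 1, 2, 4 and 3, with the last pair exchanged for Fga. The share of all tested genes with this order is not given here. Among TKO-labelled embryos the order was less uniform. Replicate 3 was the highest for 4 genes (Ttr, Fga, Fgb and Spink3), replicate 2 for 2 (Afp and Fgg) and replicate 1 for Trf, while replicate 4 was the lowest for 5 genes and replicate 1 for the other 2 (Fgb and Fgg). Over the 8 embryos, Pearson's r between a gene and the mean of the other tested serum protein genes ranged from 0.70 for Trf to 0.95 for Ttr. The closest pair was Ttr and Fgb, with r = 0.99, and Fgb made up 7.06% to 9.57% of Ttr in the 8 embryos. These correlations describe 8 embryos of 2 groups and are given without a test, because values of 1 embryo share a library.

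**Figure D3:**
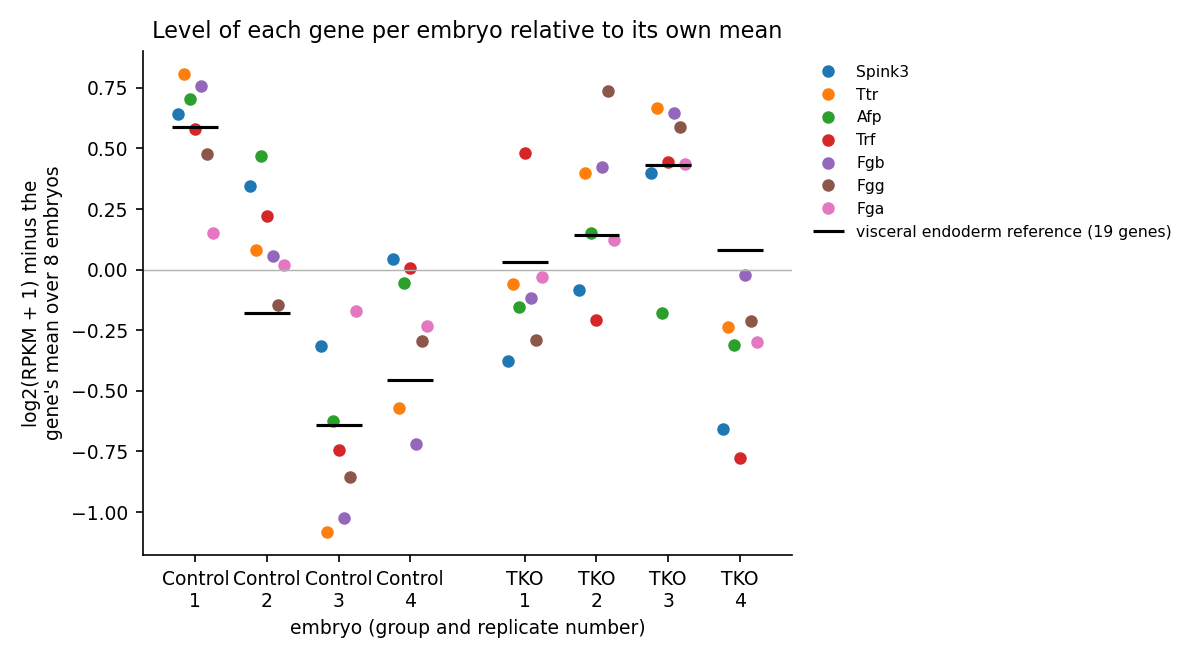
Level of each serum protein gene per embryo as log2(RPKM + 1) minus the mean of that gene over 8 embryos (points), with the same for the mean of 19 reference visceral endoderm genes (black lines). All genes lie above their mean in Control replicate 1 and all lie below it in Control replicate 3 and TKO replicate 4.

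The mean level of the serum protein genes had an r of 0.86 over the 8 embryos with the mean of the reference visceral endoderm genes. It had the same r of 0.86 with 9 extraembryonic ectoderm genes, which mark another tissue. With the epiblast list r was -0.19, with the parietal endoderm list 0.22 and with the maternal decidua list -0.33. With the anterior visceral endoderm list it was -0.49, the other way from the reference visceral endoderm genes. The reference level was 5.37, 4.61, 4.14 and 4.33 in Control replicates 1 to 4 and 4.82, 4.93, 5.21 and 4.86 in TKO-labelled replicates 1 to 4. The extraembryonic ectoderm level was likewise highest in Control replicate 1 (4.05) and lowest in Control replicate 3 (3.34). Control replicate 3, the lowest Control embryo for 6 of the 7 genes, had the highest decidua level. The part of tissue proportions in the result was not tested.

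The genes most like the serum protein genes were ranked by Pearson's r with the mean of the 6 tested ones, over 8 embryos and 10445 other tested genes. The first 10 were H13 (r = 0.96), Efnb1, Cmtm4, Mttp, Mfsd1, Prickle3, Degs1, St3gal5, Aqp3 and Hexa (0.93). H13 encodes signal peptide peptidase, an intramembrane protease of the endoplasmic reticulum, Mttp the protein that loads lipid onto apolipoprotein B, Hexa a lysosomal hexosaminidase and Degs1 an enzyme of ceramide synthesis. Mttp measured 36.9, 21.1, 12.4 and 18.2 RPKM in Control and 20.5, 26.5, 30.2 and 21.4 RPKM in the TKO-labelled embryos, with the same Control order as 6 of the 7 genes. Of the reference genes, Apoc2, Apoa2 and Lrp2 came next, at ranks 29, 30 and 32, whereas Cldn6 and Fgfr4 stood at ranks 2554 and 3429. These genes are the top of a long ranking over 8 embryos, so their r describes the choice and was not tested.

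Each gene was next set against the reference level within the same embryo, which takes out the mean level of the reference genes. The log2 level of Afp minus the reference level was 1.3, 1.83, 1.20 and 1.59 in Control and 1.00, 1.19, 0.57 and 0.79 in the TKO-labelled embryos. All 4 TKO-labelled values lay below all 4 Control values (difference -0.59, exact two-sided permutation p = 0.0286, the smallest this design allows). For Spink3 the values were 6.47, 6.94, 6.74 and 6.92 in Control and 6.01, 6.19, 6.39 and 5.68 in the TKO-labelled embryos, again without overlap (difference -0.70, exact permutation p = 0.0286). Adjusted over the 10 ratios tested, both p-values were 0.143 and did not pass the threshold. The reference level itself averaged 4.611 in Control and 4.955 in the TKO-labelled embryos. Without the subtraction Afp and Spink3 differed by -0.25 and -0.36, so both ratio differences also hold the higher reference level. Over the 10432 tested genes outside the reference list, 0.911% did not overlap between groups on this scale, 0.796% being lower in the TKO-labelled embryos. Without the subtraction 9.41% of all tested genes did not overlap. The subtraction adds the spread of the reference level to genes that do not follow it. The 0.911% is therefore no measure of how rare the result for Afp and Spink3 is.

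The other genes overlapped. The differences were 0.04 for Ttr (exact permutation p = 0.743), 0.12 for Fgb (p = 0.514), 0.07 for Fgg (p = 0.83), -0.38 for Trf (p = 0.343) and -0.23 for Fga (p = 0.314). The absence of overlap for Afp and Spink3 held under 1 of 3 other references. Without Dab2, Cldn6 and Fgfr4, which leaves 16 reference genes, the differences were -0.58 and -0.69 and the groups did not overlap. These 3 genes ranked lowest of the 19 by likeness to the serum protein genes. The 16 are otherwise the same genes, so this result is not independent of the first. With the endocytic receptor genes Lrp2, Cubn and Amn alone the difference was -0.38 for Afp and -0.49 for Spink3, and with 6 apolipoprotein genes and Mttp alone -0.59 and -0.70, but under both the groups overlapped. These references were chosen after the values were seen. The 19 reference genes themselves had a median log2 difference of 0.36, with 17 positive and 0 past the threshold. The lowest p-values among them were those of Slc39a8, a zinc and manganese importer gene (10.5 ± 2.76 and 16.8 ± 3.73 RPKM, log2 difference 0.63), and Fgfr4, a fibroblast growth factor receptor gene (1.07 ± 0.74 and 2.56 ± 0.94 RPKM, 0.80), both with a limma adjusted p of 0.182.

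**Figure D4:**
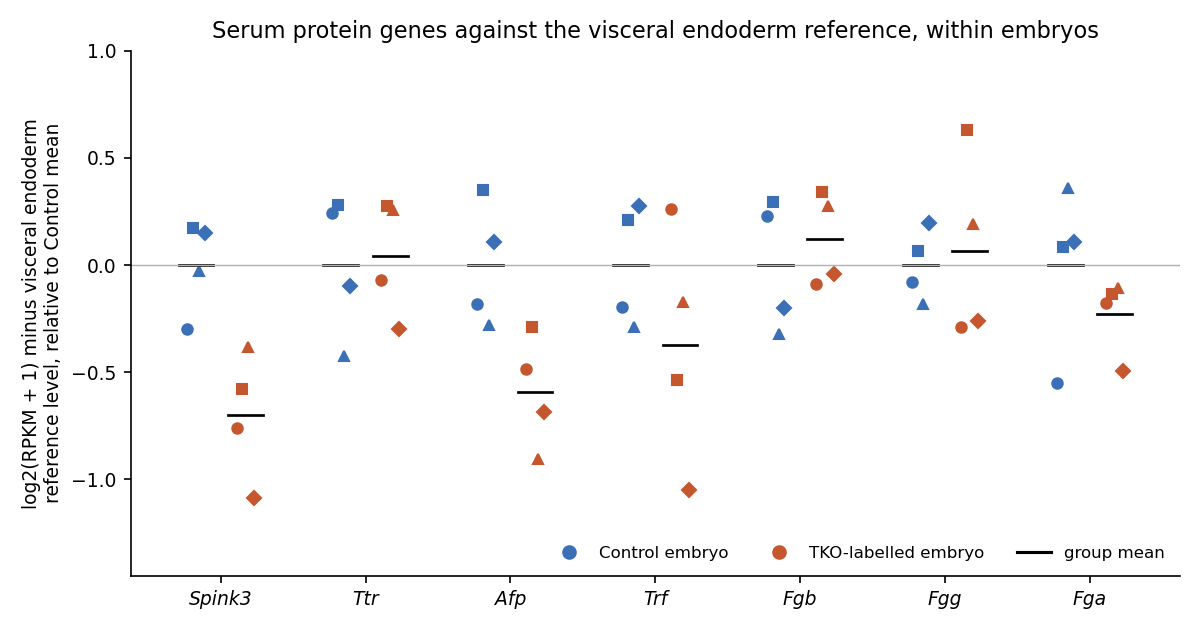
log2(RPKM + 1) of each serum protein gene minus the mean level of 19 reference visceral endoderm genes in the same embryo, drawn relative to the Control mean of each gene; points are embryos and lines are group means (n = 4). The TKO-labelled points of Spink3 and Afp lie below all Control points, while the other 5 genes overlap.

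Ratios between the serum protein genes were also taken within embryos. Of the 21 pairs, the within-embryo ratio did not overlap between groups for 3, and Spink3 was a partner in all 3. The other partners, Ttr, Fgb and Fgg, had r of 0.91 to 0.99 with each other over the 8 embryos, so the 3 pairs are not independent. Of the other 10450 tested genes as a share of Spink3, 4.31% did not overlap between groups, 4.27% being higher in the TKO-labelled embryos. Here too the division adds the spread of Spink3 to genes that do not follow it. Ttr was 6.80%, 5.02%, 3.52% and 3.92% of Spink3 in Control and 7.51%, 8.45%, 7.29% and 8.07% in the TKO-labelled embryos. Fgb was 0.277% to 0.557% of Spink3 in Control and 0.590% to 0.772% in the TKO-labelled embryos. Fgg was 0.106% to 0.179% and 0.190% to 0.363%. Afp was 40.4% to 62.3% of Ttr in Control and 24% to 41.1% in the TKO-labelled embryos, which overlap through Control replicate 1 alone. The pairs were read after the values were seen and were not tested.

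Most other serum protein genes of the liver were at low levels or 0. Of 40 listed, 25 were under 1 RPKM in each embryo, among them Ahsg, Vtn, Hpx, Apoh and the inter-alpha-trypsin inhibitor genes Itih1 to Itih4. The filter was passed by 10 of the 40, and by 10451 of all 21182 symbols. Of the 10 tested, 0 passed the threshold, with 7 positive differences and a median of 0.07. The lowest p was that of Rbp4, the retinol carrier that binds transthyretin. Rbp4 measured 52.9, 26.3, 24.4 and 22.7 RPKM in Control and 49.9, 74.7, 63.8 and 47.8 RPKM in the TKO-labelled embryos. Control replicate 1 alone overlapped the TKO-labelled range (log2 difference 0.95, SE 0.25, limma adjusted p = 0.160). Next came the complement gene Cfb, with means of 0.806 ± 0.248 and 1.3 ± 0.26 RPKM (0.35, limma adjusted p = 0.255).

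The coagulation and fibrinolysis list, which holds the enzymes that act on fibrinogen, had 11 of 23 genes tested and 0 past the threshold (8 positive, median 0.16). F2, the prothrombin gene whose product cleaves fibrinogen, measured 2.31 to 6.70 RPKM in Control and 3.51 to 7.30 RPKM in the TKO-labelled embryos (limma adjusted p = 0.625). F10, which activates prothrombin, measured 1.61 to 5.18 and 2.37 to 4.67 RPKM, and F9 and F13b were at 0.146 RPKM or less in every embryo. The lowest p-values were those of Plaur, the urokinase receptor gene (means 5.87 ± 2.44 and 10.4 ± 3.99 RPKM, log2 difference 0.75, limma adjusted p = 0.225), and F3, the tissue factor gene (3.40 ± 1.72 and 7.90 ± 4.13 RPKM, 0.93, limma adjusted p = 0.271). With the parietal endoderm level as a covariate the difference of F3 was -0.20.

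Among genes of the transferrin cycle and iron storage, 0 of 7 tested passed the threshold (6 positive, median 0.18). Tfrc, the transferrin receptor gene, measured 35.5, 35.5, 25.2 and 40.9 RPKM in Control and 30.8, 37.3, 29.3 and 27.9 RPKM in the TKO-labelled embryos (limma adjusted p = 0.723). Slc40a1, which encodes the iron exporter ferroportin, measured 10.7, 7.87, 6.68 and 7.82 RPKM in Control and 10.8, 16.2, 14.9 and 14.5 RPKM in the TKO-labelled embryos. The groups did not overlap, but Control replicate 1 and TKO replicate 1 were almost equal (log2 difference 0.71, SE 0.16, limma adjusted p = 0.136). Aco1, whose product binds iron-responsive elements when iron is low, averaged 9.50 ± 1.13 and 11.7 ± 1.09 RPKM (0.28, limma adjusted p = 0.264).

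Of 14 genes for partners of transthyretin, in retinol and thyroid hormone transport and use, 8 were tested and 0 passed (6 positive, median 0.21). Crabp2, an intracellular carrier of retinoic acid, averaged 17.3 ± 2.09 and 37.6 ± 6.14 RPKM without overlap (log2 difference 1.07, SE 0.14, limma adjusted p = 0.0576). Its adjusted p fell to 0.0239 without TKO replicate 1, to 0.0281 with a filter at 5 RPKM and to 0.0359 with the parietal endoderm covariate, in a range of 0.0239 to 0.249 over 16 alternatives. The other thyroid hormone carrier gene, Serpina7, was at 0.170 RPKM or less in every embryo.

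Regulators of the visceral endoderm had a mean level with an r of 0.18 to that of the serum protein genes over the 8 embryos, and 0 of 13 tested passed the threshold (10 positive, median 0.30). Hnf4a measured 15.3, 7.68, 8.41 and 9.49 RPKM in Control and 13.5, 9.79, 13.5 and 13.1 RPKM in the TKO-labelled embryos (limma adjusted p = 0.447). Gata6 averaged 3.63 ± 0.99 and 10.2 ± 4.08 RPKM (log2 difference 1.20, limma adjusted p = 0.145). Over 16 alternatives its limma adjusted p ranged from 0.0170, without TKO replicate 1, to 0.374. Gata4 averaged 4.96 ± 1.69 and 9.21 ± 1.40 RPKM (0.81, limma adjusted p = 0.155). Gata6 and Gata4 are also expressed in parietal endoderm. The parietal endoderm list was higher in the TKO-labelled embryos by its group mean for 13 of 13 tested genes (median log2 difference 1.24, 0 past the threshold). The basement membrane genes Nid1 and Sparc had differences of 1.64 (limma adjusted p = 0.132) and 1.18 (limma adjusted p = 0.145). Without TKO replicate 1, whose parietal endoderm level was the lowest of its group, both passed (0.0191 and 0.0306). Over 16 alternatives their limma adjusted p ranged up to 0.36 for Nid1 and 0.37 for Sparc. Zhx2, a known repressor of Afp in the liver, was at 0.214 RPKM or less in every embryo, and Zbtb20, another, at 0.867 RPKM or less.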

How the data were processed

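Single embryos were lysed whole, their cDNA was made with a SMARTer kit for low input, and Nextera XT libraries were sequenced on a HiSeq, per the labels' protocols. The deposited table gives 1 RPKM value per symbol and embryo, made by the authors. The submitters' processing notes name HTSeq and build mm9. Which aligner, gene models, read total and strand setting were used is not given in the sources used here. All 8 columns matched a sample by its label.

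Differences were tested in R 4.3.3 by limma 3.58.1, after log2(RPKM + 1), which understates changes of low genes. The fit used the variance trend, no covariate, and Benjamini-Hochberg adjustment over 10451 genes with at least 1 RPKM in at least 4 of 8 embryos. Single values and ratios were compared by exact two-sided permutation over 70 assignments (smallest p 0.0286). Samples are described as single embryos, and p-values measure only the spread between them. The fit was tested on simulated data. Read totals were placed where the largest number of low RPKM values of genes with 1 GENCODE M21 transcript came out at a few whole reads. Over a wider span of counts, 47.3% to 55.7% of these values came out whole, within 2%. The totals are therefore rough, and no count test was run. Exon lengths there come from GRCm38 and not from the authors' build.

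The genes, the lists and the reference were chosen with earlier results of these data known. The 2 genes with the smallest p are named from the lists of related genes, regulators, reference and parietal endoderm genes. The epiblast, extraembryonic ectoderm, anterior visceral endoderm, decidua, hepatocyte, blood and acute phase lists served for levels, and their genes were not named by this rule. Named too are genes of known role given by level, and the 10 genes most like the serum protein genes. Alternatives were another pseudocount (0.1), no filter or a filter at 5 RPKM, median-ratio scaling, no variance trend, the replicate number as a block, a visceral or parietal endoderm covariate, and leaving out each embryo. Some items withheld for evaluation are not reported here.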

Additional observations from a re-analysis of the deposited data

How the results depend on the processing

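Across 16 alternatives, 0 serum protein genes passed the threshold, and Afp and Spink3 kept negative differences (-0.54 to -0.055 and -0.65 to -0.20). Overlap was read from the RPKM values, which only median-ratio scaling and leaving out an embryo change. Under these alternatives 0 serum protein genes had groups that did not overlap. With the visceral endoderm covariate the log2 differences of Ttr, Fga and Fgb turned to -0.14, -0.027 and -0.041. With the parietal endoderm covariate those of Trf, Fga and Fgg turned to 0.12, -0.012 and -0.073, and that of F3 to -0.20. Leaving out 1 embryo at a time gave -0.28 to 0.22 for Trf, -0.011 to 0.23 for Fga, -0.10 to 0.15 for Ttr over the reference, -0.12 to 0.19 for Fgg over the reference and -0.078 to 0.17 for Fgb over Fgg. With a pseudocount of 0.1 Ttr over the reference was -0.014. The cause of these turns was not tested. Afp and Spink3 over the reference stayed negative in all 12 alternatives run for them (-0.69 to -0.38 and -0.81 to -0.49). The number of genes called over the whole table, 1, ranged from 0 to 40 without 1 embryo (40 without TKO replicate 1) and was 0 with no filter, 2 with a filter at 5 RPKM and 3 with the parietal endoderm covariate. With a replicate block 0 genes were called and 0 serum protein genes passed. Embryos with the same number deviated with correlations of -0.0045, 0.40, 0.26 and -0.021. The most similar TKO-labelled embryo was replicate 2 for Control replicate 2, and replicate 3 for Control replicates 1, 3 and 4. Whether the numbers stand for pairs or a shared batch was not tested. Depth limits mainly Fga, with about 5 to 53 reads.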

Other observations

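A2m, the alpha-2-macroglobulin gene, was in the list of other serum proteins but did not follow the serum protein genes. It measured 12.1, 0.286, 33.9 and 19.3 RPKM in Control and 1.53, 0.543, 22.4 and 7.67 RPKM in the TKO-labelled embryos, and was singled out after its values were seen. The decidual prolactin gene Prl8a2 measured 174, 1.32, 336 and 209.8 RPKM in Control and 21.4, 11.8, 354 and 45.2 RPKM in the TKO-labelled embryos. Tdo2, in the hepatocyte list, measured 11.3, 0.327, 48.2 and 29.97 RPKM and 2.96, 0.172, 34.0 and 17.4 RPKM. All of these were lowest in Control replicate 2 among Control embryos and in TKO replicate 2 among TKO-labelled embryos. They were highest in Control replicate 3 and in TKO replicate 3 within their groups. Of the 7 serum protein genes, 6 were lowest in Control replicate 3 within Control, whereas 4 were highest in TKO replicate 3 within the TKO-labelled embryos, as these genes were.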
